A study of Danio rerio with 4 samples.

Results

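The proteasome is the barrel-shaped protease that degrades proteins tagged with ubiquitin, and 53 of the 31388 genes measured in regenerating zebrafish hearts carried the name of one of its subunits, regulators or assembly chaperones. They were chosen by name, as every gene whose symbol begins with psm, then a letter from a to g and a digit, with at least 50 counts in at least 1 library. The name alone matched 56 genes, and 3 stayed below the minimum. These were psmb11b, whose mammalian counterpart belongs to the thymus proteasome, with at most 2 counts, another copy of PSMD4 with at most 10, and psmc3ip, a partner in meiotic recombination and not a proteasome subunit, with at most 28. The lowest gene inside the minimum was psmb9a, which reached 229 counts in its highest library. The study sequenced total RNA from ventricles of adult fish aged 6 months to 1 year, either uninjured or collected 20 days post amputation (dpa) of part of the ventricle. The latter are called injured below. Wild-type (WT) fish were of the strain AB*, and the mutants were homozygous for dusp6 pt30a, an allele of the gene for a phosphatase that switches off the kinase ERK. Each of the 4 groups (uninjured WT, WT 20 dpa, uninjured dusp6 and dusp6 20 dpa) was 1 library, and the sources used here do not say how many ventricles each library pooled.

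A proteasome has a core of stacked rings. The outer rings of alpha subunits gate the entrance, and the inner rings of beta subunits hold the cutting sites. A cap placed on the core, made of a ring of ATPases and a lid and base of non-ATPase subunits, binds ubiquitin chains, removes them and unfolds the substrate. Alternative caps exist, and in immune cells or after interferon exposure inducible beta subunits replace the constitutive catalytic ones to form the immunoproteasome, which favours peptides suited to MHC class I. In striated muscle the ubiquitin-proteasome system turns over sarcomere proteins. By these roles the 53 genes were 9 alpha ring genes, 7 constitutive and 5 inducible beta genes, 7 ATPases, 12 non-ATPases, 7 assembly chaperones and 6 activators or inhibitors. The gene that the tables call PSMB10 (ENSDARG00000001656) is named psmb13a in the gene name table used here, and it is called psmb13a below to keep it apart from psmb10 (ENSDARG00000043781). Several members have a close copy (psma6a, psma6b and psma6l, psmc1a and psmc1b, psmd4a and psmd4b, psmd11a and psmd11b, psme4a and psme4b, and the inducible beta genes among themselves). How reads were divided between copies is not stated in these sources, so the split within these pairs is uncertain.

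Total counts per library ran from 55197408 to 63222206, and each member had at least 109 counts in every library. The dusp6 transcript was measured at 85.0 CPM (read counts relative to the library total, after TMM scaling) in uninjured WT, 105 in injured WT, 183 in the uninjured mutant and 121 in the injured mutant, and this level does not by itself check the genotype labels. All 8 cardiomyocyte markers were found, at a summed 43364 to 47208 CPM, as the label heart states, but the sum does not show the chamber. Most of it came from myl7 and cmlc1, and single markers were less even. The myosin gene vmhc stood at 356 CPM in uninjured WT, 672 in injured WT, 722 in the uninjured mutant and 248 in the injured mutant. The myosin gene myh6 stood at 86.6, 145, 48.3 and 250 CPM in the same order, level with vmhc in the injured mutant only. Whether the libraries differ in their share of cell types or chambers was not tested. Library names in the headers follow one pattern for uninjured and another for resected hearts, with no batch in the labels, and injury cannot be told apart from a difference in library preparation. Genotype cannot be told apart from genetic background. With 1 library per group no difference below had a replicate check, and the 95% intervals given for folds cover counting error only, since no molecular identifiers are named and reads need not be separate molecules.

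Per length of gene, the medians of the core and cap roles were of similar size and that of the inducible beta genes was well under them. In RPKM (reads per length of gene model and total of reads, as the authors computed it), the median level in WT uninjured was 30.6 for the constitutive beta ring, 20.6 for the ATPases, 20.4 for the alpha ring and 17.9 for the non-ATPases. The medians were 17.0 RPKM for the activators or inhibitor, 8.65 for the assembly chaperones and 4.37 for the inducible beta genes. The highest core gene was psmb4, a structural beta subunit, at 52.3 RPKM in WT uninjured, and the lowest constitutive beta gene was psmb2 at 16.4. In the alpha ring, psma1 was highest at 36.5 RPKM and the copy psma6l lowest at 4.87. Within a ring the genes thus differed by several times per length. Among the ATPases, psmc5 stood at 34.0 RPKM and psmc1b at 12.1, and among the non-ATPases, psmd6 of the lid stood at 28.7 and psmd11a at 3.96. The chaperones ranged from 3.55 RPKM for psmd10, the gene of gankyrin, to 12.2 for PSMG4. The alternative caps ranged from 8.29 RPKM for psme3 to 33.7 for psme1. Of the inducible genes, psmb13a stood apart at 23.1 RPKM, and psmb9a was lowest at 2.12.

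**Figure D1:**
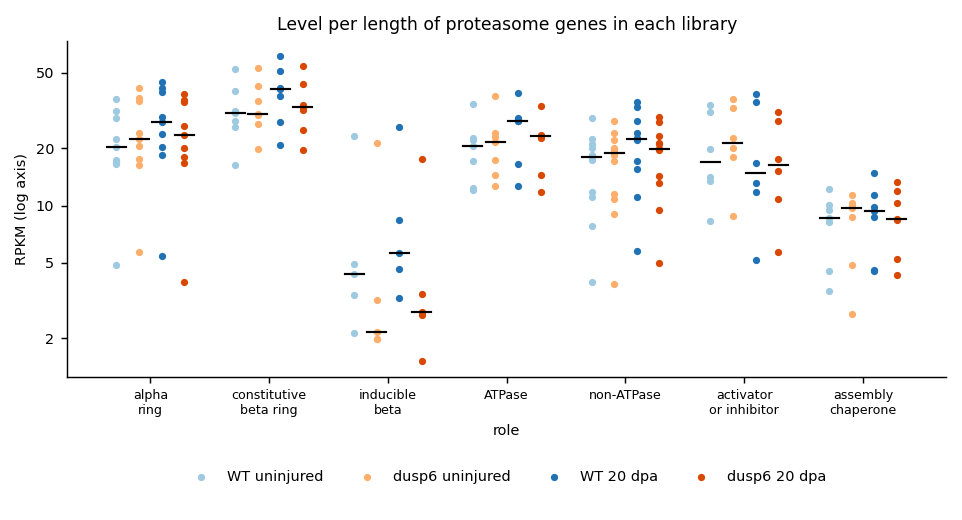
Level per length (RPKM, log axis) of the 53 proteasome genes in each of the 4 libraries, by role, with 1 point per gene and a black bar at the median of the role in that library. The median of the inducible beta genes is the lowest of all roles in every library, with psmb13a well above the other inducible genes, and the medians of the alpha ring, constitutive beta ring, ATPases and non-ATPases lie between 17.9 and 30.6 RPKM in uninjured WT.

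Most core and cap genes were measured at a modestly higher level in the WT ventricle at 20 dpa than in the uninjured WT ventricle. The shift was small for each gene and shared by nearly all of them. Added up, the 53 members took 1685 CPM in uninjured WT, 2060 in injured WT, 1926 in the uninjured mutant and 1934 in the injured mutant. The WT uninjured library was the lowest of the 4 for 41 of the 53 members, and the WT 20 dpa library was the highest for 42. Over all genes above the minimum, 21.6% were lowest in WT uninjured and 25.1% were highest in WT 20 dpa. The comparisons below are log2 fold changes of CPM plus 1, a pseudocount that understates the change of low genes. In bulk tissue, fewer cells of a type and less RNA per cell cannot be told apart.

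In WT, 49 of 53 members were higher at 20 dpa, against a background of 49.7% of the 15621 genes above the minimum. Their median log2 fold change was 0.38 (quartiles 0.23 and 0.52), against -0.00 over all genes. Past 1.5-fold there were 6 members higher (psmc3, psmb8a, psmb12, psmd14, psmd11a and psmd11b), 11.3% of them beside 10.4% of all genes, a share near the background. Past 1.5-fold lower there was 1 member, psme4a, beside 8.85% of all genes. In the dusp6 mutant, 39 of 53 members were higher at 20 dpa (background 49.0%), with a median of 0.12 (quartiles -0.00 and 0.29) against -0.01 over all genes. In the mutant 1 member, psmd10, was at least 1.5-fold higher (background 11.2%) and 1, psme4a, was at least 1.5-fold lower (background 12.9%). Across both genotypes, whose injury comparisons share no library, 39 members were higher at 20 dpa in each (background 35.5%), and the 4 lower in each (background 36.7%) were psme4a, psme4b, psmf1 and psmg2. The difference between the genotypes in this response cannot be tested with 1 library per group. The mutant count depended on scaling. With total-count scaling in place of TMM, 29 mutant members were higher and 24 lower, with a median of 0.02. The red blood cell markers, 4 of 5 names found, were higher at 20 dpa as well, and hbaa1 was called by edgeR (adjusted p 0.0484). Their sums were 4195 CPM in uninjured WT, 7768 in injured WT, 3241 in the uninjured mutant and 6207 in the injured mutant. Most of each sum was hbaa1, at 3215, 6536, 2407 and 5024 CPM in the same order. The marker alas2 was nearly level, at 425, 466, 405 and 413 CPM. In dusp6 its fold was 1.02, a direction that depended on the scaling. Of 8 skeletal muscle markers 6 passed the minimum, and 5 of these were higher at 20 dpa in each genotype. Those called by edgeR were mylpfa, pvalb1, pvalb2 and pvalb4 (adjusted p 0.0484 each). Their levels were low, such as 0.314 CPM in uninjured WT and 12.1 in injured WT for pvalb4. The remaining marker above the minimum, ckma, was lower at 20 dpa in each genotype. It stood at 4488 CPM in uninjured WT, 3800 in injured WT, 4559 in the uninjured mutant and 4131 in the injured mutant. That was nearly all of the sum of these markers, which was 4490, 3848, 4560 and 4149 CPM in the same order. The fast myosin gene myhz2 stood at 0 CPM in uninjured WT, 2.34 in injured WT, 0.0163 in the uninjured mutant and 0.0383 in the injured mutant. In the mutant these levels of myhz2 rested on 1 count uninjured and 2 at 20 dpa. The other fast myosin gene, myhz1.1, stood at 0, 0.218, 0 and 0.0191 CPM in the same library order. The edgeR calls of hbaa1 and of mylpfa, pvalb1, pvalb2 and pvalb4 were lost with total-count scaling (adjusted p 0.0531), with a floor of 250 counts (0.0636) and without the genotype term (0.0656 to 0.0846). They were kept with a floor of 10 counts (edgeR adjusted p 0.0091 to 0.0182), and DESeq2 called the same genes (adjusted p at most 8.91e-09). The part of either cell type in the members' levels was not tested.

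By role, the WT median log2 fold change was 0.35 in the alpha ring, 0.41 in the constitutive beta ring, 0.38 among the ATPases and 0.49 among the non-ATPases, and each of these 35 genes was higher at 20 dpa. In the mutant the same medians were 0.07, 0.13, 0.09 and 0.30. Under total-count scaling the mutant medians were -0.03 in the alpha ring, 0.03 in the constitutive beta ring, -0.02 among the ATPases and 0.19 among the non-ATPases, so the direction in the alpha ring and the ATPases depended on the scaling. Summed over the 12 non-ATPases, the level was 409 CPM in uninjured WT, 552 in injured WT, 439 in the uninjured mutant and 512 in the injured mutant. Both 20 dpa libraries were thus above both uninjured libraries for these cap genes. For the 9 alpha ring genes the sums were 251, 337, 296 and 315 CPM in the same order. In both sums the mutant uninjured library was nearer to the mutant 20 dpa library than the WT pair were to each other.

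**Figure D2:**
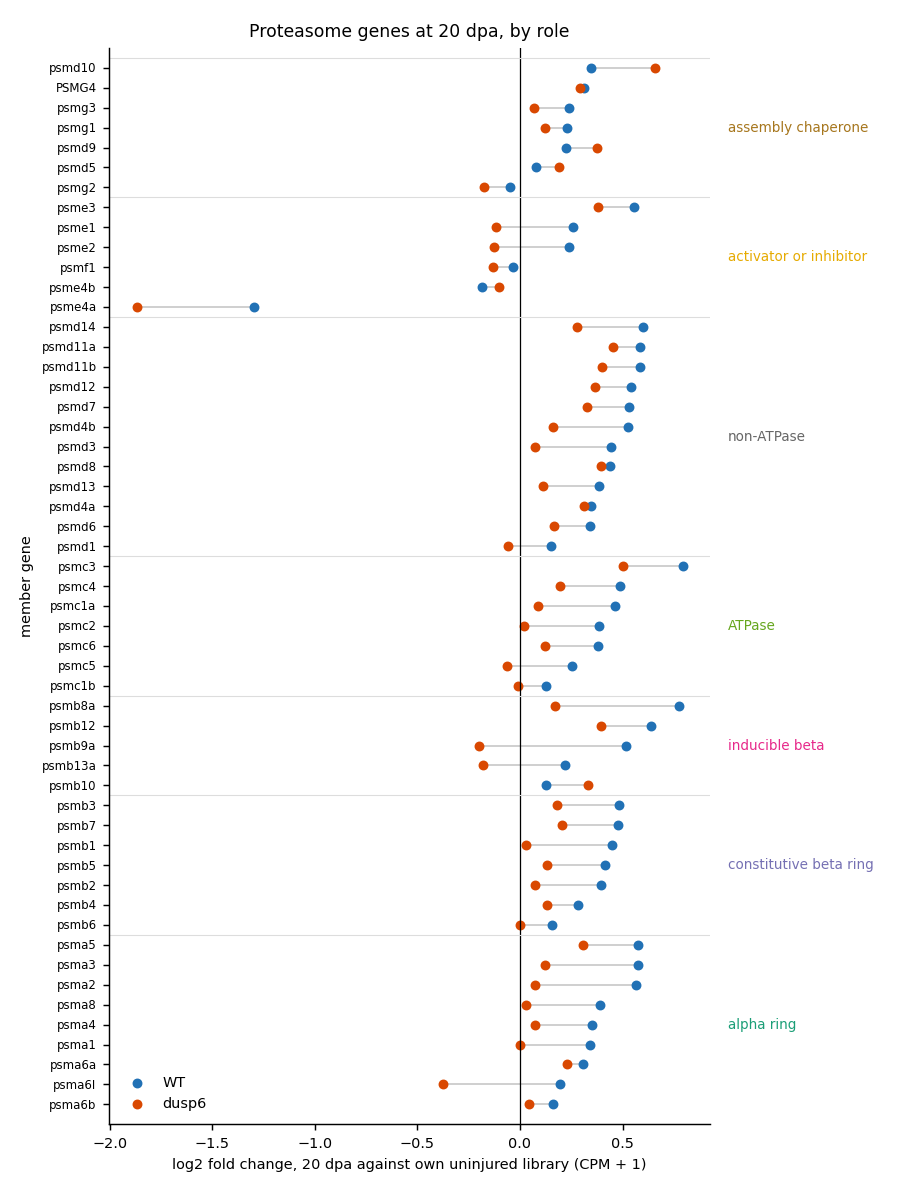
Log2 fold change of each of the 53 proteasome genes at 20 dpa against the uninjured library of the same genotype (CPM plus 1), for WT and dusp6, ordered by role, with 1 point per genotype from 1 library against 1. All 35 WT points of the alpha ring, constitutive beta ring, ATPases and non-ATPases lie right of 0, the dusp6 points of these roles lie closer to 0 except that of psma6l, and psme4a lies far to the left in both genotypes.

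Among single cap genes, psmc3, an ATPase of the ring that unfolds substrates, differed most. It was measured at 30.5 CPM in uninjured WT, 53.6 in injured WT, 32.3 in the uninjured mutant and 46.2 in the injured mutant. It was high in both 20 dpa libraries, 1.76-fold above uninjured in WT (1.66 to 1.86) and 1.43-fold in dusp6 (1.35 to 1.52). Next in WT came psmd14, the deubiquitinase of the lid that cuts the ubiquitin chain off the substrate, at 27.3 CPM in uninjured WT, 41.9 in injured WT, 30.9 in the uninjured mutant and 37.8 in the injured mutant. Its folds were 1.53 in WT (1.44 to 1.63) and 1.22 in dusp6 (1.15 to 1.30). The copies of psmd11, a scaffold subunit of the lid, had like patterns. psmd11a stood at 17.6, 27.0, 18.0 and 25.1 CPM in the same library order. Its copy psmd11b stood at 33.5, 50.7, 34.0 and 45.2 CPM. For both copies the uninjured libraries were nearly level and the 20 dpa libraries higher, the WT one more so.

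In the core, psma5 of the alpha ring was measured at 31.2 CPM in uninjured WT, 47.1 in injured WT, 36.1 in the uninjured mutant and 45.0 in the injured mutant, a log2 fold change of 0.58 in WT and 0.31 in dusp6. The alpha subunit psma3 stood at 38.8, 58.3, 49.9 and 54.3 CPM in the same order. It was already 1.29-fold higher in the uninjured mutant than in uninjured WT (1.22 to 1.36). The smallest WT difference in the constitutive beta ring was that of psmb6, which carries the caspase-like site, at 34.5, 38.6, 37.4 and 37.4 CPM. The chymotrypsin-like subunit psmb5 stood at 55.4, 74.1, 61.6 and 67.6 CPM and the trypsin-like subunit psmb7 at 36.8, 51.7, 42.0 and 48.6. All 3 catalytic genes were lowest in WT uninjured and highest in WT 20 dpa. One alpha copy differed in direction between genotypes: psma6l was measured at 7.41 CPM in uninjured WT, 8.64 in injured WT, 9.05 in the uninjured mutant and 6.75 in the injured mutant.

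The assembly chaperones, which build the rings and the cap and leave the finished particle, had WT and mutant medians of 0.23 and 0.19, with 6 of 7 higher at 20 dpa in each genotype. The exception was psmg2, of the pair of chaperones that start the alpha ring, at 10.8 CPM in uninjured WT, 10.4 in injured WT, 12.3 in the uninjured mutant and 10.8 in the injured mutant. The chaperone gene psmd10 was the only member at least 1.5-fold higher in the mutant, at 4.85, 6.44, 3.83 and 6.62 CPM. That was 1.33-fold above uninjured in WT (1.14 to 1.55) and 1.73-fold in dusp6 (1.46 to 2.05). Another chaperone gene of the ATPase ring, psmd9, stood at 8.72, 10.4, 10.2 and 13.6 CPM, highest in the injured mutant.

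The largest difference of any member ran against the rest of the complex. The gene psme4a (ENSDARG00000087911) is 1 of 2 copies of the gene for the activator PA200, a large dome that caps the core without using ATP and is known in mammals for its part in degrading acetylated histones. It was measured at 99.5 CPM in uninjured WT, 39.9 in injured WT, 175 in the uninjured mutant and 47.2 in the injured mutant. Both 20 dpa libraries lay far below both uninjured libraries. At 20 dpa it was lower by 2.49-fold in WT (2.37 to 2.62) and by 3.71-fold in the mutant (3.55 to 3.88). It was the only member past 2-fold in either genotype (background 2.14% lower in WT, 4.14% in dusp6 and 0.979% in both) and the only one at least 1.5-fold lower in both (background 4.7%). No member was 2-fold higher in WT (background 3.5%) or in dusp6 (background 3.82%), or 1.5-fold higher in both (background 4.76%). In uninjured ventricles psme4a was also 1.76-fold higher in the mutant than in WT (1.71 to 1.82), and at 20 dpa 1.18-fold higher (1.12 to 1.25).

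Its copy psme4b stood at 155 CPM in uninjured WT, 137 in injured WT, 166 in the uninjured mutant and 154 in the injured mutant. It was lower at 20 dpa by little in each genotype, with log2 fold changes of -0.18 and -0.10. Per length, psme4a stood at 67.7% of psme4b in uninjured WT, 30.9% in injured WT, 112% in the uninjured mutant and 32.4% in the injured mutant. This ratio within a library does not depend on scaling, and both 20 dpa values lay below both uninjured ones.

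The other activators differed less. The cap genes psme1 and psme2, whose products join into one ring that opens the core and which interferon induces in mammals, had like patterns. psme1 was measured at 41.9 CPM in uninjured WT, 50.3 in injured WT, 47.1 in the uninjured mutant and 43.4 in the injured mutant. psme2 was measured at 55.9, 66.3, 61.9 and 56.6 CPM. Per length, psme2 stayed between 89.8% and 91.8% of psme1 in the 4 libraries. The nuclear activator psme3 stood at 19.4, 28.9, 21.7 and 28.5 CPM, 1.49-fold higher at 20 dpa in WT (1.39 to 1.61) and 1.31-fold in dusp6 (1.22 to 1.42). The regulator psmf1, first described as an inhibitor of the core, stood at 20.4, 19.9, 27.2 and 24.8 CPM and was higher in the mutant of each state, 1.33-fold in uninjured ventricles (1.24 to 1.43) and 1.24-fold at 20 dpa (1.15 to 1.35).

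**Figure D3:**
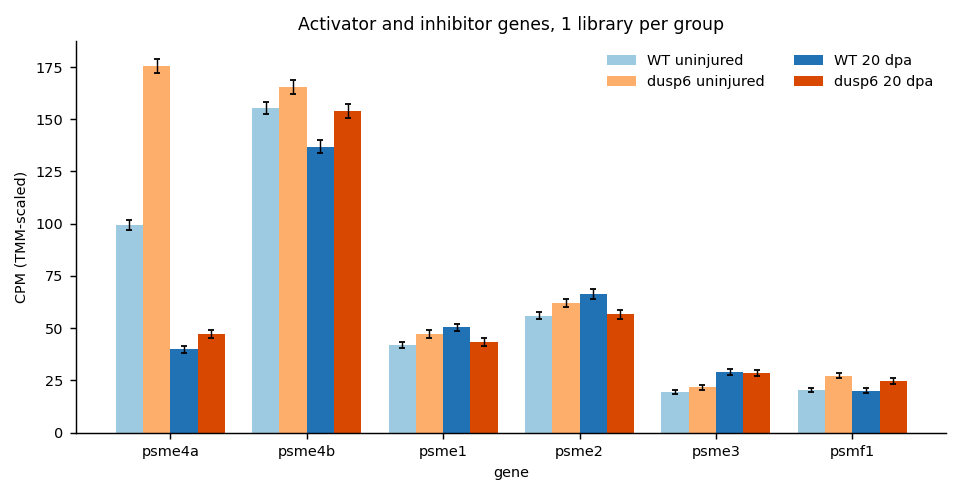
Level (TMM-scaled CPM, axis from 0) of the activator and inhibitor genes in each library, with 1 bar per library and 95% counting intervals. The bars of psme4a are at 99.5 and 175 CPM in the uninjured libraries and at 39.9 and 47.2 CPM in the 20 dpa libraries, and those of psme4b stay between 137 and 166 CPM.

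The injury term was tested over all 4 libraries in an additive edgeR quasi-likelihood fit of genotype and injury, with 1 residual degree of freedom and Benjamini-Hochberg adjustment over 15621 genes. No member passed an adjusted p of 0.05, with 0 higher (background 0.538%) and 0 lower (background 0.282%). At an unadjusted p under 0.05, 12 members were higher (background 14.0%) and 1 was lower (background 13.4%). For psme4a the fitted log2 fold change was -1.60 (SE 0.18) with an edgeR adjusted p of 0.0525, just over the threshold. DESeq2 called 1 member higher (background 4.99%), psmc3 at 0.67 (SE 0.21, adjusted p 0.022), and 1 lower (background 3.94%), psme4a at -1.60 (SE 0.22, adjusted p 3.58e-11). With a floor of 10 counts the edgeR fit called 0 members higher (background 2.55%) and 1 lower (background 2.06%), psme4a at an adjusted p of 0.0169. In the authors' deposited table for WT, which sets 1 library at 20 dpa against both uninjured libraries, 0 members were called higher (background 1.03%) and 1 lower (background 0.497%). That 1 was psme4a, 3.465-fold lower at an FDR of 0.0018 in the authors' deposited table. In the authors' deposited table for dusp6 the counts were 0 higher (background 0.924%) and 1 lower (background 0.478%), again psme4a, 2.88-fold lower at an FDR of 0.0156. The authors' tables share the uninjured libraries and are not independent of each other. Their backgrounds are over all 31388 genes, including those below the count minimum that every member passed. Those of the fit with a floor of 10 counts are over 19600 genes. These shares are thus not on the same base as the others given here.

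Between genotypes, most members were slightly higher in the uninjured mutant and slightly lower in the injured mutant than in WT, and inducible beta genes were lower in the injured mutant, some of them in the uninjured one too. The uninjured comparison shares the uninjured WT library with the WT injury comparison above, and the 20 dpa comparison shares the WT 20 dpa library with it, so neither is independent of it. In uninjured ventricles 46 of 53 members were higher in dusp6 than in WT (background 51.5%), with a median of 0.14 against 0.01 over all genes. At least 1.5-fold higher was 1 member, psme4a (background 5.8%), and at least 1.5-fold lower was 1, psmb10 (background 4.46%). At 20 dpa 43 of 53 members were lower in dusp6 than in WT (background 49.6%), with a median of -0.10 against 0.00 over all genes. At least 1.5-fold higher were 0 members (background 4.63%), and at least 1.5-fold lower were 4 (background 5.92%), the inducible beta genes psmb8a, psmb9a, psmb10 and psmb12. Under total-count scaling 37 members were higher and 16 lower in the uninjured mutant, with a median of 0.07.

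Inducible beta genes were lower in dusp6 than in WT. At 20 dpa this held for 5 of 5. In uninjured ventricles 5 of 5 fold changes were below 0, but for psmb9a and psmb13a the counting intervals included no difference (1.02-fold lower, 0.818 to 1.28, and 1.03-fold lower, 0.959 to 1.11). These signs were the same under TMM, total-count and DESeq2 scaling. The only other member lower in both states was PSMG4, and over all genes 27.4% were lower in both. The median log2 difference of the inducible genes was -0.48 uninjured and -0.74 at 20 dpa, where the constitutive beta ring had 0.15 and -0.09. Summed, the 5 inducible genes stood at 45.4 CPM in uninjured WT, 60.8 in injured WT, 37.4 in the uninjured mutant and 37.0 in the injured mutant. The injured WT sum was highest and the mutant sums were level with each other. The largest part of each sum was psmb13a. In the mutant psmb13a was 1.14-fold lower at 20 dpa, while psmb10 was 1.33-fold and psmb12 1.48-fold higher. The counting intervals of these folds excluded no difference, and those of psmb8a and psmb9a included it. The mutant median log2 fold change of the inducible genes at 20 dpa was 0.17, with 3 of 5 higher.

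The gene psmb8a, whose product takes the place of psmb5, showed the widest gap. It was measured at 8.42 CPM in uninjured WT, 15.1 in injured WT, 5.74 in the uninjured mutant and 6.60 in the injured mutant. The WT library at 20 dpa stood alone above the others, 1.80-fold over uninjured WT (1.61 to 2.001) and 2.29-fold over the injured mutant (2.02 to 2.60). In the mutant the interval of its injury fold, 1.15, included 1 (0.988 to 1.34). It was the only member past 2-fold lower between genotypes (background 1.82% at 20 dpa and 1.48% uninjured), and 0 were past 2-fold higher (backgrounds 1.41% and 1.77%).

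The gene psmb9a, which replaces psmb6, stood at 2.60 CPM in uninjured WT, 4.16 in injured WT, 2.54 in the uninjured mutant and 2.09 in the injured mutant. The uninjured libraries were level and the injured ones were 1.99-fold apart (1.58 to 2.53). The related gene psmb12 stood at 3.12, 5.43, 1.92 and 2.85 CPM in the same order. It was 1.62-fold lower in the mutant uninjured (1.29 to 2.05) and 1.90-fold lower at 20 dpa (1.56 to 2.33). For psmb10, which replaces psmb7, the levels were 6.89, 7.61, 3.56 and 4.73 CPM. On the scale of CPM plus 1 psmb10 was the only member at least 1.5-fold lower in the mutant of both states (background 0.967%), and none was 1.5-fold higher in both (background 1.04%). Without the pseudocount psmb12 also passed 1.5-fold in both, as its folds above show. Both mutant libraries were below both WT libraries, by 1.94-fold uninjured (1.64 to 2.29) and 1.61-fold at 20 dpa (1.37 to 1.89), and injury made little difference in WT. For psmb13a the levels were 24.3, 28.5, 23.6 and 20.7 CPM, nearly level in uninjured ventricles and 1.37-fold lower in the mutant at 20 dpa (1.27 to 1.49).

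**Figure D4:**
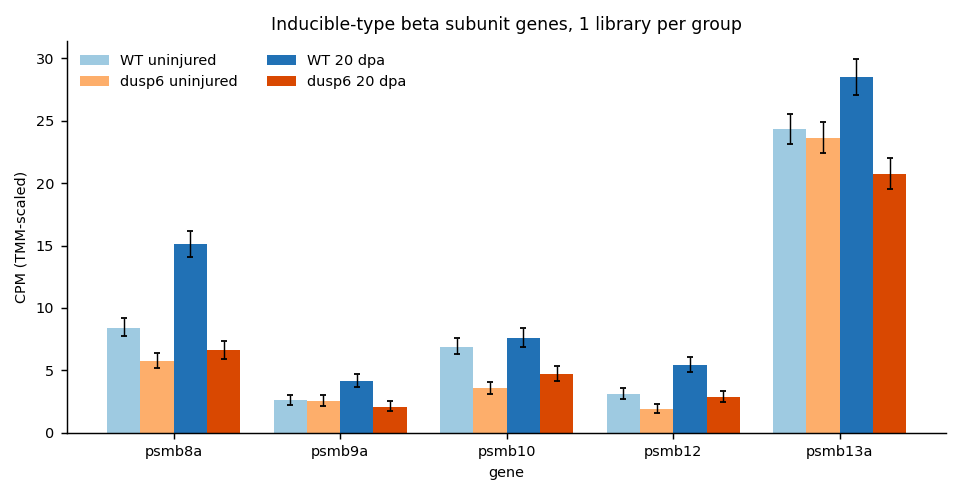
Level (TMM-scaled CPM, axis from 0) of the 5 inducible beta genes in each library, with 1 bar per library and 95% counting intervals. For psmb8a, psmb9a and psmb12 the WT 20 dpa bar is the tallest, and for psmb10 both dusp6 bars lie below both WT bars.

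Set against the constitutive subunit of the same position, which removes library scaling, all 5 inducible genes were lower in the mutant of each state. The constitutive genes psmb5, psmb6 and psmb7 were themselves higher in the uninjured mutant than in uninjured WT (1.11-, 1.08- and 1.14-fold). That lowers the uninjured mutant ratios. At 20 dpa they were measured slightly lower in the mutant. Per length, psmb8a stood at 12.3% of psmb5 in uninjured WT, 16.5% in injured WT, 7.52% in the uninjured mutant and 7.89% in the injured mutant. psmb9a stood at 8.21%, 11.8%, 7.43% and 6.10% of psmb6. psmb10 stood at 15.6%, 12.3%, 7.07% and 8.12% of psmb7. psmb12, set against psmb6, stood at 13.0%, 20.3%, 7.42% and 11.01%. For each of these pairs both mutant ratios lay below both WT ratios. The ratios carry no counting interval. For psmb9a the uninjured ratios rest on 174 counts in WT and 156 in the mutant, and its uninjured fold interval included no difference. For psmb13a, at 82.6%, 68.8%, 70.4% and 53.3% of psmb7, the mutant ratio was lower within each state. Its uninjured mutant ratio lay above that of injured WT.

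Markers of other cell types differed in part along the same lines. Of 10 macrophage marker names, 9 were found and none of these was at 0, and they summed to 290 CPM in uninjured WT, 407 in injured WT, 343 in the uninjured mutant and 260 in the injured mutant. Most of that sum was cd74a, at 144, 161, 184 and 129 CPM, and cd74b, at 68.5, 89.2, 73.4 and 55.1 CPM in the same order. Against uninjured, 9 of 9 were higher at 20 dpa in WT and 2 of 9 in dusp6. At 20 dpa 9 of 9 were lower in dusp6 than in WT, with a median log2 difference of -1.01. In uninjured ventricles 7 of 9 were higher in dusp6, with a median of 0.10, while 3 of the 5 inducible beta genes were lower beyond their counting intervals. The macrophage markers not higher there were mpeg1.1, at 10.2 CPM in WT and 7.60 in the mutant, and coro1a, which was nearly level. Of 6 T and NK cell marker names 5 were found and 2 passed the minimum, and the 5 summed to 4.90, 6.48, 2.33 and 2.33 CPM, both mutant libraries below both WT ones. Most of that sum was il2rb, at 3.05, 4.12, 0.995 and 1.09 CPM, and the defining T cell genes lck and cd8a were under 1 CPM in every library. The order of the sum held for il2rb, lck and runx3 but not for zap70 or cd8a. The gene zap70 stood at 0.314, 0.399, 0.163 and 0.421 CPM and cd8a at 0.0896, 0.0908, 0.147 and 0.0574, on at most 22 and 9 counts. The part of these cells in the inducible beta levels was not tested.

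**Figure D5:**
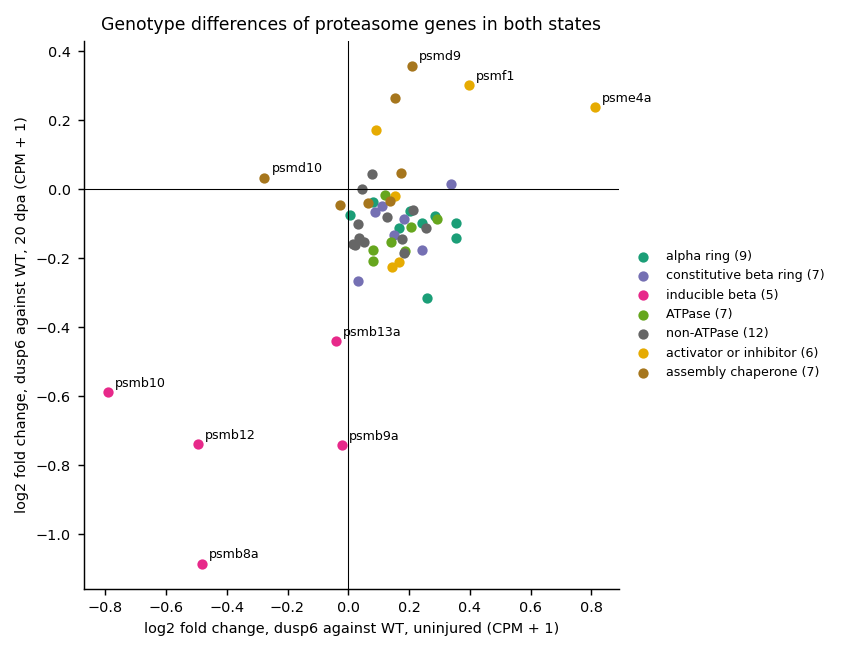
Log2 fold change of dusp6 against WT (CPM plus 1) in uninjured ventricles (horizontal axis) and at 20 dpa (vertical axis), with 1 point per proteasome gene coloured by role. Most points lie right of 0 and slightly below 0, and psme4a lies at the far right. The inducible beta genes psmb8a, psmb10 and psmb12 lie at the lower left. The other inducible genes, psmb9a and psmb13a, lie low but close to the vertical line at 0, at -0.02 and -0.04 on the horizontal axis.

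The genotype term of the additive edgeR fit called 0 members higher (background 0.0%) and 0 lower (background 0.0064%), and DESeq2 called 0 in each direction (backgrounds 0.461% and 0.493%). At an unadjusted p under 0.05, 2 members were higher, psme4a and psmf1 (background 4.84%), and 3 lower, psmb8a, psmb10 and psmb12 (background 3.99%). The lowest p among the inducible genes was that of psmb10, at a fitted log2 difference of -0.82 (SE 0.19) with an edgeR adjusted p of 0.447, followed by psmb8a at -0.88 (SE 0.22) with an edgeR adjusted p of 0.478.

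Other genes of the pathway were counted over whole lists, without a test of a list as a group. Of 22 names of proteasome partners, such as ubiquitin receptors, deubiquitinases and the core maturation factor, 16 were found. Their medians were 0.27 in WT and 0.13 in dusp6, and edgeR called 0 for injury in either direction. For this list and those below, the background of such calls is 0.538% higher and 0.282% lower. A count of 0 in so short a list therefore says little. Of 25 ubiquitin and ubiquitin activation genes 0 were called, with medians of 0.17 and 0.14. Of 15 genes found for p97 and protein extraction from the endoplasmic reticulum 0 were called, with medians of 0.10 and 0.11. Of 27 names for MHC class I peptide loading, the pathway that immunoproteasome peptides feed, 17 were found and 0 were called. Their medians were -0.14 and -0.18. In WT 4 were at least 1.5-fold higher (background 10.4%) and 4 lower (background 8.85%). In dusp6 1 was higher (background 11.2%) and 3 were lower (background 12.9%). Of 13 regulators of proteasome genes above the minimum 0 were called, with medians of 0.21 in WT and 0.12 in dusp6. In WT 1 regulator was at least 1.5-fold higher (background 10.4%) and 2 were lower (background 8.85%). In dusp6 1 was higher (background 11.2%) and 1 lower (background 12.9%). The core maturation factor pomp, named after its values were seen, stood at 39.2 CPM in uninjured WT, 54.4 in injured WT, 38.7 in the uninjured mutant and 47.0 in the injured mutant. The regulator nfe2l1a, a copy of the factor that in mammals raises proteasome genes when the proteasome is impaired, was also named after its values were seen and stood at 10.5, 21.3, 12.3 and 13.5 CPM. Both were highest in WT 20 dpa, as were most members, but not all genes of their lists were higher after injury. In WT 10 of the 16 partners and 9 of the 13 regulators were higher at 20 dpa (background 49.7%). In dusp6 these counts were 10 and 7 (background 49.0%).

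The muscle ubiquitin ligases, which tag sarcomere proteins and other substrates for the proteasome, were mostly lower at 20 dpa. None of the 10 above the minimum was higher at 20 dpa in WT, with a median of -0.45, and 2 of 10 were higher in dusp6, with a median of -0.14. The F-box gene fbxo25 fell, at 11.7 CPM in uninjured WT, 1.09 in injured WT, 24.6 in the uninjured mutant and 2.20 in the injured mutant, a fitted log2 fold change of -3.45 (SE 0.16, edgeR adjusted p 0.0484). Its folds, unscaled by a pseudocount, were 10.7 times lower in WT and 11.2 times lower in the mutant, and it was the only gene of these pathway lists that the edgeR fit called. Its edgeR adjusted p was 0.0531 with total-count scaling, 0.0636 with a floor of 250 counts, 0.0688 without the genotype term and 0.0091 with a floor of 10 counts, and the DESeq2 adjusted p was 6.05e-25.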

How the data were processed

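The authors deposited 2 tables of 31388 genes, each with the count per gene of 1 library at 20 dpa and of both uninjured libraries. The deposited count values are called expression values in the file headers and were treated as raw counts, because they are whole numbers that sum to different totals. The authors also deposited RPKM, used here only to compare levels between genes and within pairs of genes. The deposited fold change (a signed score), p-value and FDR come from an EDGE test with tagwise dispersions, per the file headers, and are quoted as the authors'. Aligner, genome build, annotation release and the use of strand are not given in the sources here. Both tables hold the same uninjured values, which were used once. Gene symbols follow the tables, and 52 of 53 members were matched in the gene name table.

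Counts were scaled by TMM, with factors of 0.938 to 1.06, and log2 differences were computed on CPM plus 1 where a gene reached 50 counts in 1 library or more. Printed folds use no pseudocount and carry exact conditional 95% intervals of counting error, so a fold can pass 1.5 where the log2 fold change of CPM plus 1 does not. Comparisons of 1 library with 1 carry no p-value. The additive fit used edgeR 4.0.16 (glmQLFit and glmQLFTest) in R 4.3.3, with DESeq2 1.42.0 as an alternative, and was tested on simulated data. Its 1 residual degree of freedom measures how far the genotypes part in their injury response, not the spread of a group. The SE printed with an edgeR result was derived from its test. It is the size of the log2 fold change divided by the square root of the F statistic. Other alternatives were the floor on counts, pseudocount, fold threshold, scaling and uninjured reference. Promoter motifs and protein sequences were not analysed here. The members and gene lists were chosen with earlier results of these data known. Values were given for the 6 members with the largest change in each comparison, all inducible beta genes, psme1 to psme3, and the highest and lowest RPKM of each role. Other genes of the lists were named if edgeR called them, and further members and genes (psma2, psma5, psmb5, psmb6, psmb7, psmd11b, psme4b, psmg2, il2rb, lck, cd8a, myhz1.1, myhz2, pomp, nfe2l1a, mhc1uba, mhc1uka and tapbp) were named after their values were seen. So were the markers myl7, cmlc1, vmhc, myh6, cd74a, cd74b, mpeg1.1, mfap4, coro1a, runx3, zap70, alas2 and ckma and the neighbours hsd17b8 and abcb3l1. Tables and plots were made in Python 3.11.15 (pandas 2.3.3, numpy 2.4.6, matplotlib 3.10.9, scipy 1.17.1).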

Additional observations from a re-analysis of the deposited data

Results flagged for a closer look

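Of the 53 proteasome genes, 4 differed in direction between the genotypes at 20 dpa, with counting intervals of both folds away from 1. The differences between the genotypes were not tested, because each group is 1 library. The alpha subunit copy psma6l had a log2 fold change of 0.20 in WT and -0.37 in dusp6. The inducible beta gene psmb13a (PSMB10 in the tables) had 0.22 in WT and -0.18 in dusp6. The activator genes psme1 and psme2 had 0.26 and 0.24 in WT, and -0.12 and -0.13 in dusp6.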

How the results depend on the processing

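The medians over all members kept their direction under the alternatives run, and 86 of 106 alternative values for medians and counts stayed close to the reported ones. Medians of single roles did not all do so. With total-count scaling the median became -0.03 in the alpha ring and -0.02 among the ATPases for injury in dusp6, -0.00 among the non-ATPases for genotype in uninjured ventricles, and -0.04 among the assembly chaperones and -0.01 among the activators or inhibitor for genotype at 20 dpa. The 6 members at least 1.5-fold higher in WT at 20 dpa became 2 with total-count scaling, 1 with a pseudocount of 10, 3 against the mean of both uninjured libraries and 0 at 2-fold. The 1 higher in dusp6 became 0 under each of these. Without a pseudocount psma2, psma3, psma5 and psmb9a also passed 1.5-fold in WT, at 1.511, 1.501, 1.507 and 1.600. In uninjured ventricles the 1 higher in dusp6 became 0 at 2-fold, and the 1 lower became 0 with a pseudocount of 10 or at 2-fold and 2 with a pseudocount of 0.1. At 20 dpa the 4 lower in dusp6 became 1 with a pseudocount of 10 and 1 at 2-fold. With total-count scaling the median log2 fold changes became 0.0192 for injury in dusp6, 0.0738 for genotype in uninjured ventricles and -0.19 for genotype at 20 dpa. For the injury term, DESeq2 called 1 member higher and 1 lower where edgeR called 0, and a floor of 10 counts gave 1 lower (psme4a, adjusted p 0.0169). For single members and list genes 1186 alternative values stayed close, 195 moved, 3 newly passed the threshold and 0 called values reversed. Among uncalled members, total-count scaling changed the sign of 10 in the dusp6 injury comparison, 9 in the uninjured genotype comparison, 5 in that at 20 dpa and 0 in the WT injury comparison, each with a log2 fold change of at most 0.0867 in size under TMM. The cause of these shifts was not tested. No paired analysis was possible because each group has 1 library and the sample titles give no replicate numbers. The headers of the 20 dpa libraries carry numbers whose meaning is not stated, and these were not used. Leaving out 1 library leaves the additive fit no residual degree of freedom, so no such test was made. Depth limits psmb9a and psmb12 most, with as few as 109 counts in a library.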

Other observations

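In the RefSeq gene order (assembly GRCz12tu) psmb13a, psmb8a, psmb12 and psmb9a are consecutive genes, and psmb10 is not among them. This region holds MHC genes, whose haplotypes are known to differ between fish, and haplotype cannot be told apart from genotype here. Of the 30 protein-coding neighbours examined, 15 on each side, 24 had at least 50 counts in at least 1 library and were not members. In uninjured dusp6 against WT, 1 of these was at least 1.5-fold higher (background 5.8%) and 1 lower (background 4.46%), with a median log2 difference of -0.09. At 20 dpa 2 were higher (background 4.63%) and 3 lower (background 5.92%), with a median of 0.01. The window was chosen after the levels of the beta genes had been seen. Among the neighbours, the MHC class I gene mhc1uba was measured at 75.5 CPM in uninjured WT, 256 in injured WT, 209 in the uninjured mutant and 95.8 in the injured mutant. The MHC class I gene mhc1uka had another pattern, at 26.5, 5.75, 23.1 and 17.8 CPM in the same order. The peptide-loading gene tapbp stood at 6.89, 8.01, 5.06 and 4.31 CPM, with both mutant libraries below both WT libraries. The same held for abcb3l1 (tap2a), the gene next to psmb9a, at 3.84, 4.16, 2.97 and 2.54 CPM. It also held for hsd17b8, at 18.2, 27.3, 7.14 and 16.8 CPM, 2.55-fold lower in the mutant uninjured and 1.63-fold lower at 20 dpa. The genotype term of hsd17b8 had an adjusted p of 0.039 in DESeq2 and 0.415 in edgeR. These neighbours were all named after their values were seen.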
